A study of Mus musculus with 29 samples.

Results

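The family described here holds 7 genes of the MLL and SET1 type: Mll5 (Kmt2e), Mll1 (Kmt2a), Mll2 (Kmt2d), Mll3 (Kmt2c), Wbp7 (the old symbol of Kmt2b), Setd1a and Setd1b. They were found by symbol among the 30025 genes of the deposited table, and 7 of 7 were present and passed the filter on low values. Mll5 lies in the interval that the 5A3 deletion removes, and the other 6 lie outside it at normal dose.

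MLL and SET1 enzymes add methyl groups to lysine 4 of histone H3 (H3K4), a mark of promoters and enhancers in use. The 6 members other than Mll5 work in complexes with the shared subunits Wdr5, Rbbp5, Ash2l and Dpy30, and Mll1 is required to maintain blood stem cells and is a frequent partner of leukemia fusion genes. Mll5 carries a SET domain and a PHD finger that binds trimethylated H3K4, has little or no methyltransferase activity of its own, and is known for its part in the fitness of blood stem cells.

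RNA was sequenced from hematopoietic stem and progenitor cells of 5A3+/del mice and of wild-type (WT) mice to ask how loss of a stretch matching human 7q22 changes expression. From bone marrow, c-kit positive, lineage negative, Sca-1 positive cells without CD41 and CD48 were sorted by CD150 into CD150hi HSC, CD150lo HSC and CD150neg MPP, the last called CD150neg HSC in the sample labels. 10 ng of total RNA was amplified with the Ovation system before TruSeq library preparation, and no step is described as keeping the strand, so genes that overlap on opposite strands cannot be told apart. The table holds 29 libraries from 10 mice.

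The WT groups held 5 C57BL/6J mice aged 12.42 to 13.28 weeks, each with a library from every population. The 5A3+/del groups held 5 C57BL/6J mice aged 12.42 to 13.85 weeks, with 5 libraries of CD150hi HSC, 5 of CD150lo HSC and 4 of CD150neg MPP. The deletion is heterozygous and in the germ line of these mice, made by Cre in embryonic stem cells between loxP sites within Fbxl13 and Srpk2, so it is present in all tissues and in the niche as well as in the sorted cells. Libraries of the same mouse share its number across populations, and WT and 5A3+/del mice with the same number are different animals.

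The steps of the low FPKM values (fragments per kilobase of exon, scaled to library depth) correspond to 21243330 to 38775319 fragments per library, with a median of 26971844. Per library, 4027 to 13227 fragments lay behind Mll5 and 827 to 1744 behind Setd1a, the member with the fewest. Duplicates of amplification are among these fragments, so such numbers describe counting error alone.

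Libraries of 2 mice stood apart. Mouse 1 of the 5A3+/del group had a summed FPKM of the other 6 members of 181 in CD150hi HSC, where the other 4 mice had 94.8 to 130, and of 155 in CD150neg MPP, where the others had 101 to 115. Its CD150lo HSC library had 105, within the 86.9 to 124 of the other 4. Kdm5d, a Y-linked H3K4 demethylase, was at 0, 0.0218 and 0.0165 FPKM in the libraries of WT mouse 3 and at 10.0 to 25.4 FPKM in the 26 others, and the labels give no sex. The values without each of these mice stand beside the results on Mll5.

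In WT libraries Mll5 and Mll1 were the most abundant members on the FPKM scale, which is per length and allows levels of different genes to be compared. Mll5 had the highest FPKM of the family in 8 of 15 WT libraries and Mll1 in the other 7. In 5A3+/del libraries Mll1 came first in 14 of 14 and Mll5 had rank 2 in 12 of 14. Over the 29 libraries the median FPKM was 46.4 for Mll1, 37.3 for Mll5, 21.6 for Mll2, 21.5 for Mll3, 10.1 for Setd1b, 9.45 for Wbp7 and 6.27 for Setd1a. Mll2 and Mll3 had no steady order, with ranges of 13.8 to 34.8 and 13.3 to 35.6 FPKM and rank 3 in 13 and 15 libraries. Setd1b and Wbp7 had ranges of 8.44 to 17.3 and 5.51 to 15.2 FPKM and rank 5 in 23 and 6 libraries. Setd1a was the lowest member in 27 of 29 libraries.

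**Figure D1:**
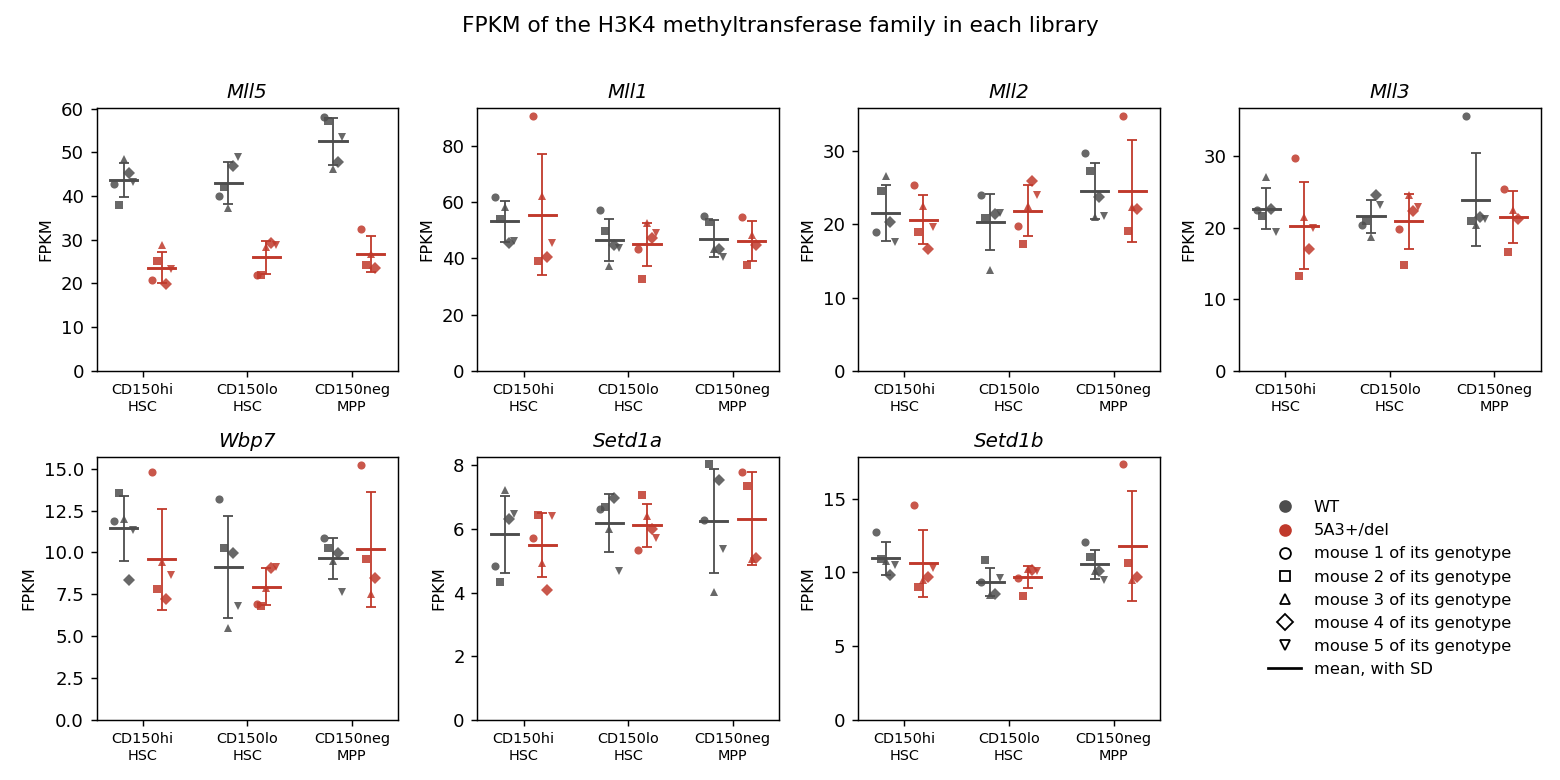
FPKM (linear axis from 0) of each of the 7 members in the 29 libraries by population, WT in grey and 5A3+/del in red, with the mouse number as the symbol and the group mean with its SD as bars. Mll5 libraries of the genotypes do not overlap in any population, with 37.3 FPKM as the lowest WT value and 32.4 as the highest 5A3+/del value, and the genotypes overlap for the other 6 members.

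Mll5, the member in the deleted interval, fell in 5A3+/del mice in all 3 populations. In order of mouse number, CD150hi HSC had Mll5 levels of 42.8, 37.9, 48.5, 45.3 and 43.3 FPKM in WT and 20.7, 25.2, 28.8, 19.9 and 23.2 FPKM in 5A3+/del mice. Every 5A3+/del library was below every WT library, with a gap from 28.8 to 37.9 FPKM between mouse 3 of the 5A3+/del group and mouse 2 of the WT group. The mean was 43.6 ± 3.87 FPKM (SD, n = 5) in WT and 23.6 ± 3.57 (SD, n = 5) for 5A3+/del mice, which is 54.1% of WT. Fold changes are on the log2(FPKM + 1) scale after quantile normalization, which understates changes of genes with low values. Within a population each library is a different mouse, so the permutation tests are over mice. The limma p-values are over libraries of all populations, with those of the same mouse treated as separate unless a block is named. Mll5 had a log2 difference of -0.88 (standard error 0.11, 95% interval -1.12 to -0.65, limma adjusted p = 0.000548). An exact two-sided permutation test of the log2 level before normalization gave p = 0.00794 (n = 5 and 5), the smallest that this design allows.

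In CD150lo HSC, Mll5 stood at 40.0, 42.1, 37.3, 47.0 and 48.9 FPKM in WT and at 21.9, 21.9, 28.4, 29.1 and 28.8 FPKM in 5A3+/del mice. The genotypes again did not overlap, and mice 1 and 2 of the 5A3+/del group were the lowest. The mean fell from 43.1 ± 4.83 FPKM (SD, n = 5) to 26.0 ± 3.76 (SD, n = 5), which is 60.4% of WT. Here the log2 difference was -0.70 (standard error 0.11, 95% interval -0.94 to -0.47, limma adjusted p = 0.00693), and the exact permutation test gave p = 0.00794 (n = 5 and 5), the smallest possible.

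The highest Mll5 levels were in WT CD150neg MPP, with 58.1, 57.1, 46.2, 47.8 and 53.5 FPKM, where 5A3+/del mice had 32.4, 24.2, 26.7 and 23.5 FPKM. All 4 libraries of 5A3+/del mice lay below all 5 of WT mice, and mouse 1 was the highest of them. The mean fell from 52.6 ± 5.37 FPKM (SD, n = 5) to 26.7 ± 4.06 (SD, n = 4), or 50.8% of WT. The log2 difference was -0.98 (standard error 0.12, 95% interval -1.23 to -0.73, limma adjusted p = 0.000234), with p = 0.0159 in the exact permutation test (n = 5 and 4), the smallest possible. In bulk RNA, fewer cells with a transcript and less of it per cell cannot be told apart.

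Against the background, limma called 0.156%, 0.0324% and 0.0454% of the 15409 genes tested in the CD150hi, CD150lo and CD150neg populations, and 1 of the 7 members, Mll5, was among them in each. At an unadjusted p under 0.05 stood 13.1%, 6.87% and 4.27% of all genes. The fall of Mll5 was compared between populations by the difference of the log2 differences. It was -0.18 between CD150hi and CD150lo HSC (limma adjusted p = 0.999), 0.10 between CD150hi HSC and CD150neg MPP (adjusted p = 0.927) and 0.28 between CD150lo HSC and CD150neg MPP (adjusted p = 0.997). A difference in the size of the fall was therefore not detected with these mice.

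The call in CD150lo HSC was lost without WT mouse 4 (log2 difference -0.64, limma adjusted p = 0.0650), and the calls in the other populations held whichever mouse was left out. Without 5A3+/del mouse 1 the log2 differences were -0.83, -0.66 and -1.05 in CD150hi HSC, CD150lo HSC and CD150neg MPP (limma adjusted p = 0.00222, 0.0179 and 0.000214). Without WT mouse 3 they were -0.85, -0.74 and -1.01 (adjusted p = 0.00770, 0.0225 and 0.00104). Scaling each library to the same sum moved the median of all genes by 0.17 in CD150hi HSC and 0.11 in CD150lo HSC. Relative to that median Mll5 then stood at -0.82 and -0.70, and both calls were lost (limma adjusted p = 0.0570 and 0.433). Fitting only the compared groups also ended the calls, with adjusted p of 0.359, 0.238 and 0.0722 in the order of populations above.

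Mll5 made up a smaller share of the summed FPKM of the family in 5A3+/del mice. In CD150hi HSC its share was 24.4%, 22.7%, 25.5%, 28.7% and 27.9% in WT and 10.3%, 21.0%, 18.1%, 17.4% and 17.4% in 5A3+/del mice. The share ranged from 22.7% to 33.7% over the 15 WT libraries and from 10.3% to 21.0% over the 14 libraries of 5A3+/del mice. The lowest share, in 5A3+/del mouse 1, went with the highest Mll1 share of the 29 libraries, 44.9%.

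Mll1 and Wbp7, the members whose complexes hold menin and that act at promoters, were not called by genotype. Mll1 in CD150hi HSC had 61.7, 54.0, 58.4, 45.4 and 46.4 FPKM in WT and 90.5, 39.2, 62.2, 40.4 and 45.3 FPKM in 5A3+/del mice. Mouse 1 of the 5A3+/del group was the highest of the 29 libraries. In its group 3 mice were below all WT libraries and mice 1 and 3 were above them, so the 5A3+/del range enclosed that of WT. The log2 differences of Mll1 were -0.003, -0.02 and -0.05 in the same order of populations as for Mll5 (limma adjusted p = 0.997 and 1.00 for the outer 2). Without 5A3+/del mouse 1 the Mll1 value in CD150hi HSC was -0.18 (limma adjusted p = 0.651), and under sum scaling it was 0.22, or 0.05 relative to the median of all genes.

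Mll1 in CD150lo HSC had 57.1, 49.9, 37.2, 44.7 and 43.8 FPKM in WT and 43.4, 32.6, 52.5, 47.4 and 48.9 FPKM in 5A3+/del mice. The CD150neg MPP libraries had 55.0, 52.9, 43.4, 43.3 and 40.4 FPKM in WT and 54.6, 37.5, 48.1 and 44.6 FPKM in 5A3+/del mice. In both populations mouse 2 of the 5A3+/del group was the lowest library, and the rest lay within the WT range. Wbp7 in CD150hi HSC had 11.9, 13.6, 12.0, 8.33 and 11.4 FPKM in WT and 14.8, 7.80, 9.45, 7.20 and 8.66 FPKM in 5A3+/del mice. Mouse 1 of the 5A3+/del group was the highest of the 10 mice here and mouse 4 of that group the lowest. Wbp7 showed the largest difference of the 6 in this population, -0.25 (standard error 0.18, 95% interval -0.61 to 0.11), which did not pass the test (limma adjusted p = 0.566). Without 5A3+/del mouse 1 it was -0.39 (limma adjusted p = 0.293). In CD150lo HSC its values were 13.2, 10.3, 5.51, 9.95 and 6.77 FPKM in WT and 6.94, 6.80, 7.84, 9.06 and 9.12 FPKM in 5A3+/del mice. All 5 of the latter lay within the WT range. In CD150neg MPP they were 10.8, 10.3, 9.48, 9.99 and 7.66 FPKM in WT and 15.2, 9.58, 7.50 and 8.49 FPKM in 5A3+/del mice, where mouse 1 was again the highest. The log2 difference of Wbp7 was -0.15 in CD150lo HSC and 0.05 in CD150neg MPP (limma adjusted p = 0.959 and 1.00). Without WT mouse 3 the former was -0.26, and without 5A3+/del mouse 1 the latter was -0.11.

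Mll2 and Mll3, whose complexes hold the H3K27 demethylase Kdm6a and act at enhancers, had group means of 20.3 to 24.6 FPKM in the 6 groups. Mll3 in CD150hi HSC had 22.5, 21.7, 27.2, 22.6 and 19.4 FPKM in WT and 29.7, 13.3, 21.6, 17.0 and 19.9 FPKM in 5A3+/del mice. Here 5A3+/del mouse 1 was the highest library and 2 of the group were below all WT libraries. The log2 difference of Mll3 was -0.19, -0.06 and -0.13 in the CD150hi, CD150lo and CD150neg populations (limma adjusted p = 0.667, 0.989 and 1.00), and without 5A3+/del mouse 1 that in CD150hi HSC was -0.32 (adjusted p = 0.417). Mll3 in CD150lo HSC had 20.4, 21.0, 18.8, 24.6 and 23.2 FPKM in WT and 19.8, 14.7, 24.6, 22.3 and 22.9 FPKM in 5A3+/del mice, where mouse 2 was the lowest. The CD150neg MPP libraries had 35.6, 21.0, 20.4, 21.5 and 21.2 FPKM in WT and 25.4, 16.7, 22.5 and 21.2 FPKM in 5A3+/del mice. WT mouse 1 stood above its group there, and the log2 difference of -0.13 includes it. The medians were 21.2 FPKM in WT and 21.9 FPKM in 5A3+/del CD150neg MPP.

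Mll2 in CD150hi HSC had 18.9, 24.5, 26.6, 20.3 and 17.6 FPKM in WT and 25.4, 19.0, 22.5, 16.7 and 19.7 FPKM in 5A3+/del mice. Except for mouse 4, the 5A3+/del libraries lay within the WT range. In CD150lo HSC Mll2 had 24.0, 20.8, 13.8, 21.4 and 21.6 FPKM in WT and 19.7, 17.3, 22.5, 25.9 and 24.0 FPKM in 5A3+/del mice. In CD150neg MPP it had 29.7, 27.3, 21.0, 23.8 and 21.1 FPKM in WT and 34.8, 19.1, 22.4 and 22.1 FPKM in 5A3+/del mice. WT mouse 3 was the lowest in CD150lo HSC and 5A3+/del mouse 1 the highest in CD150neg MPP, and the genotypes overlapped in both. For Mll2 the log2 differences were -0.06, 0.11 and -0.02 (limma adjusted p = 0.904, 0.969 and 1.00). That in CD150lo HSC was 0.007 without WT mouse 3, and that in CD150neg MPP was -0.17 without 5A3+/del mouse 1.

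Setd1a and Setd1b, the catalytic subunits of the complexes that place most H3K4 trimethylation, were the members at the lower end of the order with Wbp7. Setd1a in CD150hi HSC had 4.83, 4.32, 7.23, 6.30 and 6.45 FPKM in WT and 5.71, 6.42, 4.91, 4.07 and 6.40 FPKM in 5A3+/del mice. The lowest and highest of these came from 5A3+/del mouse 4 and WT mouse 3. In CD150lo HSC Setd1a had 6.62, 6.69, 5.99, 6.96 and 4.67 FPKM in WT and 5.34, 7.07, 6.41, 5.98 and 5.73 FPKM in 5A3+/del mice. In CD150neg MPP it had 6.27, 8.05, 4.01, 7.54 and 5.38 FPKM in WT and 7.78, 7.36, 5.05 and 5.08 FPKM in 5A3+/del mice. The genotypes overlapped in each population. Its log2 differences were -0.07, -0.02 and 0.03 in CD150hi HSC, CD150lo HSC and CD150neg MPP (limma adjusted p = 0.889, 0.994 and 1.00).

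Setd1b in CD150hi HSC had 12.8, 10.9, 10.8, 9.81 and 10.5 FPKM in WT and 14.6, 9.04, 9.48, 9.69 and 10.3 FPKM in 5A3+/del mice. In CD150lo HSC Setd1b had 9.33, 10.8, 8.49, 8.51 and 9.65 FPKM in WT and 9.64, 8.44, 10.2, 10.2 and 10.1 FPKM in 5A3+/del mice. In CD150neg MPP it had 12.1, 11.0, 10.1, 10.1 and 9.48 FPKM in WT and 17.3, 10.7, 9.48 and 9.68 FPKM in 5A3+/del mice. Mouse 1 of the 5A3+/del group was the highest in CD150hi HSC and in CD150neg MPP, and the other libraries of the genotypes overlapped. Its log2 differences were -0.05, 0.04 and 0.13 (adjusted p = 0.905, 0.989 and 1.00), and the last was -0.03 without mouse 1.

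Of the 6 members at normal dose, limma called 0 by genotype in each of the 3 populations (all genes 0.156%, 0.0324% and 0.0454%). An unadjusted p under 0.05 was reached by 0 of the 6 in any (all genes 13.1%, 6.87% and 4.27%). Their median log2 difference was -0.06, -0.02 and 0.004 in the CD150hi, CD150lo and CD150neg populations, beside 0.004, 0.01 and -0.001 for all genes. The 95% intervals of these 6 members reached from -0.61 to 0.35 for CD150hi HSC, from -0.51 to 0.40 for CD150lo HSC and from -0.49 to 0.43 for CD150neg MPP. Differences within these bounds could not be told from 0. Under sum scaling, with its shift of all genes, 5 of the 6 differences were above 0 in CD150hi HSC, and 1 of the 6, that of Mll1, was above 0 relative to the median.

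**Figure D2:**
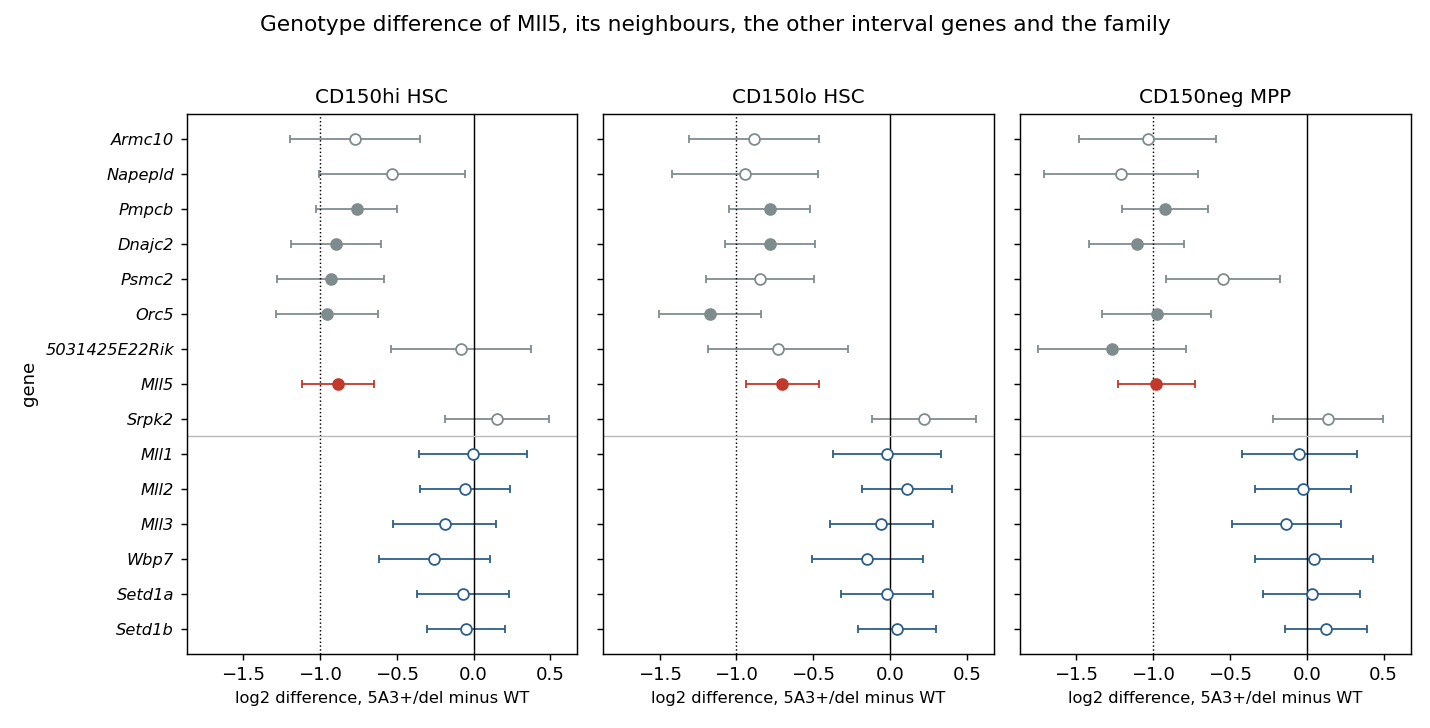
Log2 difference of 5A3+/del minus WT with its 95% interval, from limma, for Mll5 (red), the other 6 members (blue) and the neighbours and other interval genes (grey) in each population; filled points have an adjusted p under 0.05, and the dotted line marks a log2 difference of -1. Mll5 lies at -0.88, -0.70 and -0.98, and the intervals of the other 6 members all include 0.

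Between populations no member was called. With 7.64% of genes called between CD150hi and CD150lo HSC, 0.292% between CD150lo HSC and CD150neg MPP and 13.2% between CD150hi HSC and CD150neg MPP, limma called 0 of 7 members in each, and 0, 0 and 1 had an unadjusted p under 0.05, beside 19.5%, 7.93% and 24.9% of all genes. So few genes cannot tell the family from other genes. Mll5 was the 1 member, at 33.6 ± 11.1 FPKM (SD, n = 10) in CD150hi HSC and 41.1 ± 14.4 (SD, n = 9) in CD150neg MPP over both genotypes, which differ more by genotype than by population. Its log2 difference of CD150hi HSC minus CD150neg MPP was -0.18 (95% interval -0.35 to -0.01, limma adjusted p = 0.175). Mll1 and Wbp7 had the largest differences of CD150hi minus CD150lo HSC, 0.23 and 0.25 (limma adjusted p = 0.297 and 0.276). Mll2 was called between CD150hi HSC and CD150neg MPP under 1 alternative, the mouse as a block with correction for exon length and GC content (log2 difference -0.22, limma adjusted p = 0.0426).

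Within groups, levels of members other than Mll5 were compared between libraries. With group means subtracted, 13 of their 15 pairs had a correlation above 0 over the 29 libraries, from -0.21 to 0.78 with a median of 0.447. Setd1a correlated with the other 5 at -0.21 to 0.16, and the remaining 10 pairs lay at 0.324 to 0.779. No comparison with pairs of other genes was made. The CD150hi HSC and CD150neg MPP libraries of 5A3+/del mouse 1 are included. Their log2 deviations from the group means over the 6 members, 0.410 and 0.315, were the highest of the 29 libraries. Mll5 correlated with the other 6 at -0.15 to 0.41, with a median of 0.0651. These correlations share the library, its amplification and its base composition as well as the mouse. The members are long transcripts, from 6795 bp of exon for Setd1a to 20296 bp for Mll3, and 7494 bp for Mll5. The difference between the median of 1158 genes with over 8000 bp of exon and that of 2981 genes with up to 1000 bp, taken in each library, correlated with Mll3 at 0.623, Mll2 at 0.570, Mll5 at 0.496, Mll1 at 0.406 and Setd1b at 0.348. For Wbp7 and Setd1a the same correlation was -0.02 and -0.13. By genotype, the median log2 difference of the short genes was -0.08, -0.08 and 0.004 and that of the long genes 0.06, 0.04 and -0.04, with the populations ordered by falling CD150. With correction for exon length and GC content as an alternative, the 3 calls of Mll5 held and no other member was called by genotype.

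Mll5 lies on chromosome 5 of mm9 at 22940259 to 23010053 on the plus strand. Its neighbours on both sides are transcribed from the minus strand: 5031425E22Rik, a transcript at 22937628 to 22939737 that the table lists as protein coding and the study treats as non-coding, and Srpk2, a kinase of splicing factors at 23009174 to 23182266. The starts of 5031425E22Rik and Mll5 face away from each other with 521 bp between them. The last 880 bp of Mll5 overlap the end of Srpk2, a gene that holds 1 of the loxP sites. Mll3 and Setd1b lie on the same chromosome outside the deletion, at 24777612 to 25004601 and 123592202 to 123617444. The remaining members are on chromosomes 9 (Mll1, 44611438 to 44689379), 15 (Mll2, 98662100 to 98701614) and 7 (Wbp7, 31353877 to 31373745, and Setd1a, 134920184 to 134943636).

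The divergent neighbour of Mll5 was called by genotype in 1 of 3 populations. In CD150hi HSC 5031425E22Rik had 8.05, 4.19, 5.99, 7.76 and 5.74 FPKM in WT and 11.0, 5.05, 3.88, 5.63 and 5.54 FPKM in 5A3+/del mice. The groups overlapped, with 5A3+/del mouse 1 above all others, and the log2 difference there was -0.27 without that mouse (limma adjusted p = 0.632). In CD150lo HSC it had 8.77, 7.29, 7.78, 7.35 and 8.08 FPKM in WT and 4.98, 6.30, 3.65, 4.01 and 3.46 FPKM in 5A3+/del mice. In CD150neg MPP the values were 8.10, 10.1, 8.05, 7.28 and 8.34 FPKM in WT and 2.91, 1.63, 2.17 and 5.31 FPKM in 5A3+/del mice. The genotypes did not overlap in CD150lo HSC or CD150neg MPP. The log2 differences of 5031425E22Rik were -0.08, -0.73 and -1.27 (standard errors 0.22, 0.22 and 0.23), and it was called in CD150neg MPP (limma adjusted p = 0.914, 0.271 and 0.0262).

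The difference in CD150neg MPP and that in CD150hi HSC lay 1.19 apart on the log2 scale, and this comparison of the genotype difference between populations did not pass over all genes (limma adjusted p = 0.375). Between CD150hi and CD150lo HSC it was 0.65 (adjusted p = 0.999). The call in CD150neg MPP was lost in 7 of 10 fits with a mouse left out, those without WT mouse 1, 2, 3, 4 or 5 or 5A3+/del mouse 2 or 3; over the 10 fits the log2 difference lay between -1.53 and -1.09 and the adjusted p reached 0.246. It was also lost with no filter (limma adjusted p = 0.0725) and with only the compared groups in the fit (adjusted p = 0.453).

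The convergent neighbour Srpk2 in CD150hi HSC had 7.13, 7.49, 10.2, 10.9 and 11.1 FPKM in WT and 11.0, 10.8, 10.3, 8.26 and 11.5 FPKM in 5A3+/del mice. In CD150lo HSC Srpk2 had 5.57, 10.2, 6.39, 11.1 and 10.4 FPKM in WT and 11.4, 7.13, 10.0, 13.0 and 9.94 FPKM in 5A3+/del mice. In CD150neg MPP it had 8.86, 9.99, 9.92, 8.52 and 10.6 FPKM in WT and 12.0, 8.83, 12.7 and 8.96 FPKM in 5A3+/del mice. WT mice 1 and 3 were the lowest in CD150lo HSC. Its log2 differences were 0.15, 0.22 and 0.14 (limma adjusted p = 0.753, 0.906 and 1.00), and its ranges overlapped in each population. Since the ends of Mll5 and Srpk2 share 880 bp and the strand is not known, a part of either level may count fragments of the other.

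The stretch between 5031425E22Rik and Mll5 holds the start of each, and the 300 bases before Mll5 are shown because this is the promoter of the member that lost a copy. The sequence is chr5:22939959-22940258 on the plus strand of the mm9 (NCBIM37) mouse genome, 5′ to 3′, with the dinucleotide CG in capitals. CG reads the same on both strands, and each position was counted once.
Mll5: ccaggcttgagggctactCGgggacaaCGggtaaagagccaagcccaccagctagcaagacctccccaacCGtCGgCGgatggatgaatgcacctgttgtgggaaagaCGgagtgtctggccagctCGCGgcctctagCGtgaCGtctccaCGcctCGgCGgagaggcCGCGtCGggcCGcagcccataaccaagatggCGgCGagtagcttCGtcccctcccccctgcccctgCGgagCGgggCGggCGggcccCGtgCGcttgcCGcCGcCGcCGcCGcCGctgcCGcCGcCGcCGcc
It holds 36 CG, against a median of 13 over the 300 bases before 15135 genes of the filtered table, and 6.85% of these promoters hold as many or more. At least 1 CG was found in 97.5% of them. The other members held 55 (Mll3), 33 (Mll1), 31 (Mll2), 29 (Wbp7), 21 (Setd1a) and 19 (Setd1b), so 7 of 7 were above the median. These are counts of letters and give no measure of methylation.

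Means of the other 6 interval genes tested were below WT in each population, and 5031425E22Rik, described above and also within the deletion, stood at 98.1%, 57.0% and 35.8% of WT. In CD150hi HSC the 5A3+/del mean was 61.6% of WT for Armc10, 54.8% for Napepld, 53.6% for Pmpcb, a mitochondrial peptidase subunit, 51.2% for the chaperone gene Dnajc2, 46.2% for the proteasome subunit gene Psmc2 and 45.4% for Orc5 of the origin recognition complex, beside 54.1% for Mll5. In CD150lo HSC Mll5, at 60.4%, was above all 6, which lay at 33.9% to 55.8%, and in CD150neg MPP Mll5 was at 50.8% and the 6 at 14.3% to 63.2%. The lowest of each range was Napepld, a gene near the floor with 0 fragments in its lowest library. Its means in WT and 5A3+/del mice were 2.33 and 0.789 FPKM in CD150lo HSC and 2.19 and 0.313 FPKM in CD150neg MPP. The next lowest were Orc5 at 40.4% in CD150lo HSC and Dnajc2 at 43.5% in CD150neg MPP. Of these 6 interval genes, limma called 4 in CD150hi HSC and 3 each in CD150lo HSC and CD150neg MPP (all genes 0.156%, 0.0324% and 0.0454%). Mll5 had the smallest adjusted p of the 7 in CD150hi HSC and CD150neg MPP. Pmpcb, Dnajc2 and Orc5 were called in all 3 populations, and Psmc2 was called in CD150hi HSC. In CD150lo HSC Psmc2 missed the threshold (limma adjusted p = 0.0507). It was called under 7 of 24 alternatives. Of these, 5 were changes of processing (limma adjusted p from 0.00969 to 0.0414), and in the rest a mouse was left out. Armc10 and Napepld passed in no population (limma adjusted p from 0.0725 to 0.320). Armc10 was called under 1 alternative, with a mouse left out, in CD150hi HSC and 1 in CD150neg MPP (limma adjusted p = 0.00614 and 0.0215). The median log2 difference of all 6 was -0.83, -0.86 and -1.01 in the order of populations above. With a mouse left out, the call of Dnajc2 in CD150lo HSC was lost in 7 of 10 fits (limma adjusted p up to 0.134, log2 difference -0.87 to -0.71), that of Orc5 in CD150neg MPP in 5 (up to 0.124, -1.01 to -0.93) and that of Psmc2 in CD150hi HSC in 4 (up to 0.0831, -1.04 to -0.77). The calls of Pmpcb in CD150hi and CD150lo HSC and of Orc5 in CD150hi HSC were each lost in 2 of 10, with adjusted p up to 0.0556, 0.0898 and 0.0559. Fitting only the compared groups ended all 10 calls of these genes (limma adjusted p from 0.0722 to 0.390), and sum scaling ended 9 of them (adjusted p from 0.0532 to 0.418), all but that of Dnajc2 in CD150neg MPP. The replicate number as a block also ended the call of Orc5 in CD150neg MPP (adjusted p = 0.0572).

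By the rule for likeness, the 5 genes with the highest correlation with Mll5 over the 29 libraries were Pmpcb (0.889), Orc5 (0.855), Dnajc2, Fcer1g (0.786) and Psmc2 (0.784), so 4 of 5 were interval genes. Over the 15 WT libraries they included Dync1li2 (0.878), Trip11 (0.877), Sbno1 (0.873) and Usp11 (0.869). With group means subtracted they were Cap1 (0.766), Tfcp2 (0.759), Dock8 (0.733), Mpp7 (0.724) and Usp11 (0.717) over 29 libraries. The points share library and mouse, and these genes were picked as the highest of 15409. The 29 libraries hold both genotypes, and the 4 interval genes share the deletion with Mll5. Over the WT libraries the 4 lay between -0.216 (Psmc2) and 0.397 (Dnajc2), and with group means subtracted between -0.290 (Dnajc2) and 0.233 (Pmpcb). None of the other 6 members came among the genes so picked. The highest of the 6 was Mll3 over the 29 libraries (0.354) and over the WT libraries (0.472), and Mll2 with group means subtracted (0.411).

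The 4 core subunits of the complexes of the 6 members other than Mll5 were detected in every library, and none was called by genotype. Wdr5, a reader and scaffold of the complexes, had a median of 11.8 FPKM in WT and 13.7 FPKM in 5A3+/del CD150hi HSC, with a log2 difference of 0.20 (limma adjusted p = 0.485). Rbbp5 was next at 0.11 (adjusted p = 0.785). Of 4 core subunits limma called 0 in each population and 0 had an unadjusted p under 0.05 (all genes 13.1%, 6.87% and 4.27%), and their medians were 0.10, 0.04 and 0.08 in CD150hi HSC, CD150lo HSC and CD150neg MPP. In CD150lo HSC the largest statistics were those of Ash2l (0.12) and Dpy30 (-0.07), and in CD150neg MPP those of Ash2l (0.24) and Wdr5 (0.10), with adjusted p from 0.973 to 1.00.

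Of 12 subunits particular to some of the complexes, 11 were tested, and 2900092E17Rik (Pagr1a) fell below the filter. By genotype limma called 0 of 11 in each population, with 1 at an unadjusted p under 0.05 in each (all genes 13.1%, 6.87% and 4.27%), and the medians were 0.02, 0.05 and -0.07. Cxxc1, the CG-binding subunit of the SET1 complexes, had 10.8 to 17.5 FPKM in WT and 16.8 to 24.9 FPKM in 5A3+/del CD150hi HSC, a log2 difference of 0.43 (limma adjusted p = 0.350), and a difference of 0.32 in CD150lo HSC. Tasp1, the protease that cleaves Mll1 and Wbp7, had differences of -0.40, -0.45 and -0.34 in the 3 populations (adjusted p = 0.435, 0.711 and 1.00). Bod1l, a subunit of the SET1B complex, had 15.8 to 22.7 FPKM in WT and 9.49 to 14.7 FPKM in 5A3+/del CD150neg MPP. These libraries did not overlap, and no share of all genes without overlap is given beside this. The log2 difference of -0.64 did not pass over all genes (limma adjusted p = 0.595). In CD150hi and CD150lo HSC the differences of Bod1l were above 0, at 0.31 and 0.06 (adjusted p = 0.437 and 0.989). Between populations, Hcfc2, a relative of the host cell factor of the MLL and SET1 complexes, was higher in CD150hi HSC than in CD150neg MPP, with 8.36 to 16.0 FPKM and a median of 11.6 against 4.90 to 10.5 FPKM and a median of 7.21 (log2 difference 0.64, limma adjusted p = 0.00289).

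Of the 6 genes for Setd5, the closest relative of Mll5, and for enzymes that bind or modify MLL5, limma called 0 by genotype, and 0 had an unadjusted p under 0.05 in any population (all genes 13.1%, 6.87% and 4.27%). Ogt, the enzyme that adds O-linked N-acetylglucosamine and stabilizes MLL5, had a median of 99.7 FPKM in WT and 109 FPKM in 5A3+/del CD150hi HSC, with log2 differences of 0.17 and 0.25 in CD150hi and CD150lo HSC (adjusted p = 0.646 and 0.807). Ppp1ca, a catalytic subunit of protein phosphatase 1, had -0.23, -0.19 and 0.20 (adjusted p = 0.495, 0.894 and 1.00), and the deubiquitinase Usp7 had -0.11 in CD150neg MPP. The list medians were 0.11, 0.03 and -0.05. Of the 6 genes of the NCoR and HDAC3 corepressor, limma called 0 in each population, with 1, 0 and 0 at an unadjusted p under 0.05 (all genes 13.1%, 6.87% and 4.27%) and medians of 0.02, 0.06 and 0.04. Tbl1x of this complex had the smallest p, with a log2 difference of 0.19 in CD150hi HSC (limma adjusted p = 0.374). Ncor1 had 0.09 and Tbl1x 0.11 in CD150lo HSC, and Gps2 had 0.26 and Tbl1x 0.10 in CD150neg MPP.

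Among 5 other enzymes described as H3K4 methyltransferases, 4 were tested and Smyd1 fell below the filter. By genotype limma called 0 of 4, with 0 at an unadjusted p under 0.05 in each population (all genes 13.1%, 6.87% and 4.27%), and medians of 0.08, 0.05 and 0.002. Smyd2 and Smyd3 had -0.25 and 0.19 in CD150hi HSC, Setd7 0.08 and 0.12 in CD150lo HSC and CD150neg MPP, Prdm9 0.15 in CD150lo HSC and Smyd3 -0.06 in CD150neg MPP. By population, Smyd2 was higher in CD150hi HSC, with a median of 18.3 FPKM, than in CD150neg MPP, with 14.0 FPKM (log2 difference 0.40, limma adjusted p = 0.0206). That call was lost in 5 of 10 fits with a mouse left out (adjusted p up to 0.0803) as well as without normalization and with sum scaling (adjusted p = 0.0601 and 0.138).

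Of 7 H3K4 demethylases, which remove the mark, limma called 0 by genotype, with 1, 0 and 0 at an unadjusted p under 0.05 (all genes 13.1%, 6.87% and 4.27%) and medians of 0.11, 0.02 and -0.04. Kdm1a (LSD1) had -0.31 and Kdm1b -0.25 in CD150hi HSC (limma adjusted p = 0.348 and 0.468), and Kdm1b had -0.28 and Kdm5c -0.25 in CD150neg MPP (adjusted p = 1.00 for each). In CD150lo HSC Kdm5d had 0.98, a value that holds the WT library near 0 named above, and Kdm5a had 0.16 (adjusted p = 0.905 and 0.921).

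Of 10 readers of trimethylated H3K4, limma called 0 by genotype, with 0 at an unadjusted p under 0.05 in each population (all genes 13.1%, 6.87% and 4.27%) and medians of 0.09, 0.03 and -0.13. The largest statistics were those of the ING proteins Ing2 (0.25) and Ing3 (0.21) in CD150hi HSC, of the remodeler Chd1 (0.20) and of Ing5 (0.20) in CD150lo HSC, and of Ing2 (-0.38) and Phf2 (0.21) in CD150neg MPP, with adjusted p from 0.573 to 1.00. By population, Ing4 was lower in CD150hi than in CD150lo HSC, with medians of 6.13 and 7.68 FPKM (log2 difference -0.34, limma adjusted p = 0.0372). Phf2, a reader with a demethylase domain, was higher in CD150hi HSC than in CD150neg MPP, with medians of 16.9 and 12.1 FPKM (log2 difference 0.43, limma adjusted p = 0.0234). The call of Ing4 was lost in 9 of 10 fits with a mouse left out (adjusted p up to 0.103) and that of Phf2 in 3 (up to 0.0956), and both were lost without normalization (adjusted p = 0.0730 and 0.0676), with sum scaling (0.108 and 0.0944) and with only the compared groups (0.0705 and 0.0644). With the replicate number or the mouse as a block, 2 genes of the H3K4 lists were called between CD150hi and CD150lo HSC instead of 1.

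Of 10 genes described as MLL1 targets in blood stem and progenitor cells, limma called 0 by genotype in each population, with 1 at an unadjusted p under 0.05 in each (all genes 13.1%, 6.87% and 4.27%), and medians of -0.08, 0.04 and -0.04. Hoxa9, a homeobox gene of stem cell renewal, had a log2 difference of -0.46 in CD150hi HSC and -0.30 in CD150lo HSC (limma adjusted p = 0.198 and 0.779). Hoxa7 had -0.21 in CD150hi HSC, Hoxa10 -0.45 in CD150lo HSC, and Hoxa5 0.48 and Mecom -0.20 in CD150neg MPP (adjusted p = 0.506, 0.606, 1.00 and 1.00).

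Between populations, of the same 10 targets limma called 5 higher and 1 lower in CD150hi than in CD150lo HSC, where 7.64% of all genes were called, and 5 higher and 1 lower in CD150hi HSC than in CD150neg MPP, where 13.2% were, and medians of 0.17 and 0.40 beside -0.01 and -0.005 for all genes. Mecom, a zinc finger regulator of stem cells, was higher by 0.65 and 0.88 and Pbx3 by 0.72 and 1.04 on the log2 scale (limma adjusted p from 9.47e-09 to 0.000353). Meis1, a cofactor of Hox proteins, was higher by 0.26 and 0.39 and Prdm16 by 0.43 and 0.57, and Hoxa9 had -0.38 and -0.43 (limma adjusted p from 0.000336 to 0.0326). Against CD150lo HSC, the calls of Prdm16, Hoxa9 and Meis1 were lost in 7, 6 and 2 of 10 fits with a mouse left out (adjusted p up to 0.0743, 0.122 and 0.0662), and those of all 3 under sum scaling (adjusted p = 0.0770, 0.0706 and 0.157). The call of Meis1 was also lost with median scaling (adjusted p = 0.0586) and that of Hoxa9 with only the compared groups (adjusted p = 0.0788). Levels of Mll1 itself were not called between these populations.

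Interferon response genes and Bid, a list described downstream of Mll5 loss in blood stem cells, had 0 of 15 called by genotype in limma in each population. At an unadjusted p under 0.05 there were 3, 0 and 0 in the CD150hi, CD150lo and CD150neg populations, where all genes had 13.1%, 6.87% and 4.27%. Of the 15, 13 were above 0 in CD150hi HSC and 11 in each of the other populations, with medians of 0.23, 0.07 and 0.08 beside 0.004, 0.01 and -0.001 for all genes. The transcription factor Stat2 (0.43) had the largest statistic in CD150hi HSC (limma adjusted p = 0.305). Ifit3 had 0.46 in CD150lo HSC, and Ifit1 0.51 and Usp18 -0.34 in CD150neg MPP (adjusted p from 0.894 to 1.00). Between populations, the interferon receptor subunit gene Ifnar2 was lower in CD150hi HSC than in CD150neg MPP, at -0.76, as was Rtp4, at -0.75 (limma adjusted p = 3.16e-05 and 0.000710). Rtp4 was also lower than in CD150lo HSC, at -0.51 (adjusted p = 0.0285), a call lost in 5 of 10 fits with a mouse left out (adjusted p up to 0.0917). That call was also lost with no filter, with sum scaling and with only the compared groups (adjusted p = 0.0519, 0.0560 and 0.0552). Between the same populations 2 genes of the list were called with FPKM of at least 10 in 1 library, a trend in the variance prior or age as a covariate. The same count came with the mouse as a block, with correction for exon length and GC content, and with both.

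The sorted populations carried the markers of their gates. Kit and Ly6a, the genes for c-kit and Sca-1, were above 0 in 29 of 29 libraries, with medians of 152 and 155 FPKM. Slamf1, the gene for CD150, was higher in CD150hi than in CD150lo HSC by 2.90 and than in CD150neg MPP by 3.83 on the log2 scale, and Flt3, a receptor of multipotent progenitors, had -2.93 and -3.59. Cd34 had -1.64 and -2.06 and Cd48 -1.36 and -2.25 in the same comparisons, and Itga2b, the gene for CD41, had 0.58 against CD150neg MPP (limma adjusted p from 2.02e-16 to 0.0159 for these calls). Cd48 and Itga2b, which the sort selects against at the protein level, had medians of 2.68 and 1.98 FPKM. Of the 8 gate markers, limma called 0 by genotype, with 3, 3 and 1 at an unadjusted p under 0.05 (all genes 13.1%, 6.87% and 4.27%) and medians of 0.34, 0.18 and 0.09, and the largest statistics were those of Ly6a (0.61) and Cd34 (0.57) in CD150hi HSC, Ly6a (0.55) and Kit (0.32) in CD150lo HSC, and Ly6a (0.40) and Procr (0.26) in CD150neg MPP. Slamf1, the gene of the sorting gate, went the other way in CD150lo HSC, at -0.46 (limma adjusted p = 0.663). Between CD150lo HSC and CD150neg MPP, Slamf1 was higher by 0.92 and Flt3 had -0.66 (limma adjusted p = 0.00306 and 0.0222).

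Granulocyte markers were present in the sorted cells and varied widely between libraries. The summed FPKM of 7 markers, as lowest, median and highest library, was 57.7, 302 and 887 in WT and 14.0, 16.0 and 119 in 5A3+/del CD150hi HSC. The sums for CD150lo HSC were 29.1, 191 and 1337 in WT and 21.2, 144 and 356 in 5A3+/del mice, and those for CD150neg MPP were 16.0, 60.8 and 118 in WT and 7.22, 84.3 and 243 in 5A3+/del mice. S100a8 or S100a9 was the most abundant of them in each group, and Ly6g was at 0 in 24 of 29 libraries. Of 6 tested, limma called 0 by genotype, with 4, 0 and 0 at an unadjusted p under 0.05 (all genes 13.1%, 6.87% and 4.27%) and medians of -2.28, -0.34 and 0.15. Ngp had -3.19 and Ltf -1.43 in CD150hi HSC, Elane 0.48 and Mpo -0.63 in CD150lo HSC, and S100a9 0.66 and Ltf 0.61 in CD150neg MPP. Mpo was lower in CD150hi HSC than in CD150neg MPP by a called log2 value of -1.50 (limma adjusted p = 0.0298). Their part in the results was not tested.

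The 6 erythroid markers had median sums of 9.54 to 18.6 FPKM per group, with Hbb-b1 the most abundant. The 4 megakaryocyte markers had median sums of 23.1 to 47.6 FPKM, with Pf4 the most abundant, and Gp1bb was at 0 in 15 libraries. Vwf, a gene also expressed by platelet-biased stem cells, was higher in CD150hi HSC by 1.96 and 2.15 on the log2 scale (limma adjusted p = 2.99e-13 and 3.51e-14). For the 4 B cell markers the median sums were 0.440 to 1.86 FPKM, with Pax5 at 0 in 15 libraries, and for the 4 T cell markers they were 0.520 to 3.07 FPKM, with Cd4 the most abundant and Cd3e, Cd3g and Cd8a at 0 in 19, 17 and 17 libraries. Cd4 was lower in CD150hi HSC than in CD150neg MPP, at -0.81 (limma adjusted p = 0.0110). By genotype limma called 0 of the tested genes of these 4 lists in each population. At an unadjusted p under 0.05 there were 1, 1 and 0 in the CD150hi, CD150lo and CD150neg populations (all genes 13.1%, 6.87% and 4.27%). The largest statistics were those of Klf1 (-0.44), Alas2 (0.22), Gp9 (-0.86), Pf4 (-0.08), Cd79a (-0.47), Ebf1 (0.01) and Cd4 (-0.18) in CD150hi HSC and of Hba-a1 (0.74), Klf1 (0.58), Gp9 (0.38), Pf4 (0.24), Cd79a (0.12), Ebf1 (-0.13) and Cd4 (0.24) in CD150lo HSC. In CD150neg MPP they were those of Hba-a1 (0.36), Hbb-b1 (-0.35), Gp9 (-0.37), Pf4 (-0.27), Cd79a (-0.34), Ebf1 (-0.09) and Cd4 (0.41). The part of these cells in the results was not tested.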

How the data were processed

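RNA of 3 sorted populations from 10 mice was sequenced in 29 libraries. The authors mapped paired-end reads to mm9, with Bowtie 0.12.2 and HTSeq named in the labels, and deposited FPKM per gene and library, which are not quantile normalized. All columns of the table were used. Genes were matched by symbol, with positions and exon lengths from GENCODE for mm9, and 97.5% of 30025 genes matched.

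The filter on the deposited FPKM kept 15409 genes, those reaching 1 in 4 or more libraries, and their log2(FPKM + 1) values were then quantile normalized. limma 3.58.1 in R 4.3.3 fitted 6 group means to the 29 libraries at once. Contrasts of genotype within each population, of populations averaged over genotypes, and of the genotype difference between populations were tested two-sided, with Benjamini-Hochberg adjustment over all genes tested and a threshold of 0.05. Levels are FPKM before normalization. Mll5 was also tested by exact permutation with scipy 1.17.1 in Python 3.11.15, with pandas 2.3.3. The promoter was read from the genome with pysam 0.24.0.

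Of each list, the genes named are those called in any contrast of genotype or population and, by genotype, the 2 with the largest absolute moderated statistic in each population; the 6 other expressed interval genes, both neighbours, and the 5 genes most like Mll5 by Pearson correlation in each of 3 ways are named too. Some genes that meet this rule are left unnamed, and the counts and medians of the lists include them. The members and lists were chosen with earlier results of these data known. Kdm5d in the description of WT mouse 3 and Mll2 under 1 alternative were singled out after their values were seen.

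Libraries of the same mouse correlated, with group means subtracted, by -0.04 to 0.23 over 28 pairs with a median of 0.0786, and libraries of the same number but different genotype by -0.03 to 0.08 over 14 pairs with a median of 0.0345. Genes of a library are not independent, so these describe the pairing only. The steps were tested on simulated data. The alternatives changed the pseudocount, the filter, how libraries are normalized, the variance prior, the libraries in the fit, age as a covariate, the replicate number or the mouse as a block, exon length and GC content, and each mouse left out in turn.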

Additional observations from a re-analysis of the deposited data

Results flagged for a closer look

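In 54 groups of 4 or 5 libraries, the 7 members and both neighbours of Mll5 in each genotype and population, 4 had a single library far from the rest of its group. Chance gives this in about 1 in 20 groups, which is 2.7 of the 54, and the cause was not tested.

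Mll3 had 35.6 FPKM in mouse 1 of WT CD150neg MPP, where the next library had 21.5. Setd1b had 14.6 FPKM in mouse 1 of 5A3+/del CD150hi HSC, with 10.3 as the next, and 17.3 FPKM in the CD150neg MPP library of the same mouse, with 10.7 as the next. The neighbour 5031425E22Rik had 11.0 FPKM in the CD150hi HSC library of that mouse, where the next had 5.63. So 3 of the 4 came from 5A3+/del mouse 1. No genotype difference of a member or neighbour differed between populations at an adjusted p under 0.05 in limma, and the smallest unadjusted p, for 5031425E22Rik between CD150hi HSC and CD150neg MPP, came with an adjusted p of 0.375.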

How the results depend on the processing

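The fall of Mll5 kept its direction in 72 of 72 values over 24 alternatives in 3 populations and its call in 66. Sum scaling without mitochondrial genes ended the call in CD150hi HSC (-0.64) and CD150lo HSC (-0.59), and fitting only the compared groups ended it in CD150hi HSC (-0.88), CD150lo HSC (-0.70) and CD150neg MPP (-0.98). Leaving out a mouse gave -0.94 to -0.83, -0.74 to -0.64 and -1.05 to -0.94 in the same order, and the call in CD150lo HSC was lost without WT mouse 4 (adjusted p = 0.0650). With the replicate number as a block (replicate block) and with the mouse as a block, each call held. The cause of these changes was not tested.

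The number of genes called in CD150hi HSC was 24 and became 15 with a pseudocount of 0.1, 75 without a filter, 85 with FPKM of at least 10 in 1 library, 71 with sum scaling, 100 with a trend in the variance prior, 0 with the compared groups only and 56 with the replicate block of the mouse. Leaving out a mouse gave 4 to 40. In CD150lo HSC it was 5 and became 8, 16, 17, 0, 31 and 0 under the first 6 of these, 8 with the replicate block of the number, 8 with that of the mouse and 9 with correction for exon length and GC content, with or without the mouse block. Leaving out a mouse gave 3 to 74. In CD150neg MPP it was 7 and became 4 without a filter, 3 with sum scaling, 0 with the compared groups only and 4 with the replicate block of the number, and 3 to 8 with a mouse left out.

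No other member was called by genotype under any alternative in which it was tested, and Setd1a was not tested with FPKM of at least 10 in 1 library, a level it did not reach. Their directions changed in 14 of 18 results. In CD150hi HSC, median scaling gave 0.0124 for Mll1, and sum scaling gave 0.22 for Mll1, 0.16 for Mll2, 0.0286 for Mll3, 0.13 for Setd1a and 0.15 for Setd1b. Sum scaling in CD150lo HSC gave 0.0694 for Mll1, 0.0585 for Mll3 and 0.0975 for Setd1a. It moved the median of all genes by 0.111 there, and relative to that median they kept their direction, at -0.042, -0.053 and -0.014. In CD150neg MPP, correction for length and GC content gave 0.0360 for Mll1 and 0.00436 for Mll2, and 0.0349 and 0.00671 with the replicate block of the mouse added.

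With a mouse left out, the CD150hi HSC ranges that crossed 0 were -0.184 to 0.105 for Mll1, -0.123 to 0.00916 for Mll2, -0.134 to 0.00250 for Setd1a and -0.141 to 0.0203 for Setd1b. In CD150lo HSC they were -0.0847 to 0.0895 for Mll1, -0.122 to 0.0520 for Mll3, -0.108 to 0.00739 for Setd1a and -0.00223 to 0.0887 for Setd1b. In CD150neg MPP they were -0.109 to 0.0490 for Mll1, -0.171 to 0.0800 for Mll2, -0.109 to 0.152 for Wbp7, -0.0664 to 0.106 for Setd1a and -0.0260 to 0.195 for Setd1b. The neighbour 5031425E22Rik in CD150hi HSC gave -0.273 to 0.0700, and 0.12 with sum scaling.

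Between populations, 1 member was called under 1 alternative, Mll2 between CD150hi HSC and CD150neg MPP with the replicate block of the mouse and correction for length and GC content (-0.22). Directions changed between CD150hi and CD150lo HSC without normalization for Mll2 (0.00319) and Mll3 (0.000484). Between CD150lo HSC and CD150neg MPP they changed for Mll1 without normalization (-0.0317) and with sum scaling (-0.0730) and for Setd1a (-0.00853 and -0.0446). Between CD150hi HSC and CD150neg MPP, Setd1b gave 6.15e-05 with age as a covariate and 0.00107 with the replicate block of the number. With a mouse left out the ranges that crossed 0 were, for CD150hi minus CD150lo HSC, -0.0889 to 0.0440 for Mll2 and -0.0649 to 0.0384 for Mll3. For CD150lo HSC minus CD150neg MPP they were -0.00684 to 0.0382 for Mll1, -0.0627 to 0.0483 for Mll3 and -0.0231 to 0.0845 for Setd1a. For CD150hi HSC minus CD150neg MPP they were -0.0727 to 0.0261 for Mll3 and -0.0253 to 0.0284 for Setd1b. None of these ranges held a called value, and the cause was not tested.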
